A study of Mus musculus with 13 samples.

Results

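The genes described here are 9 components and target genes of Norrin signalling: Ndp, Fzd4, Lrp5, Tspan12, Lef1, Axin2, Apcdd1, Dkk2 and Ctnnb1. Every non-control probe carrying one of these names was taken from the array files. The name came from the RefSeq accession of the probe or from the symbol in its description, and Ndp was formerly called Ndph. This gave 10 probes, 1 for each gene and 2 for Ctnnb1, out of 41174 probes and 16791 genes with a symbol on the array. All 10 were bright enough to be tested, among 39354 probes tested in all.

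The samples were RNA from mouse retina on 13 Agilent arrays: 6 from endothelial tip cells, 4 from stalk cells and 3 controls of nonvascular retina. Tip cells lead a sprouting vessel and stalk cells follow them. On each array the sample was labelled red (Cy5) and a commercial reference RNA shared by all arrays, Universal Mouse Reference RNA, was labelled green (Cy3). No array had the dyes swapped. The labels state no genotype, strain, age or treatment, nor how the cells were collected. All samples of a group carry 1 source name and are not tied to separate animals, so p-values measure only the spread between these samples, which may be technical.

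Norrin, encoded by Ndp, is a secreted protein that is not a Wnt but binds the Wnt receptor Frizzled4. It acts with the coreceptor Lrp5 and the tetraspanin Tspan12. Binding stabilises β-catenin, encoded by Ctnnb1, which then acts with LEF and TCF factors to switch on target genes. In the retina this pathway is known for driving vessel growth and the blood-retina barrier, and Norrin is known as a product of Müller glia.

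The upstream sequences of 5 start sites are shown for 4 genes: the 3 that differed between tip and stalk samples (Lef1, Axin2, Dkk2), and Ndp, which with a second Lef1 start holds a match to the LEF and TCF motif. Each is the 250 bases before a RefSeq transcript start in build GRCm38.p6, written 5′ to 3′ on the strand of the gene. Capitals mark a match on either strand to 1 of 4 motifs of 7 bases. These are CTTTGAT, followed by its variant CTTTGAA, the further variant CTTTGTT, and finally the variant CTTTGTA.
Lef1, chr3:131110047-131110296, plus strand: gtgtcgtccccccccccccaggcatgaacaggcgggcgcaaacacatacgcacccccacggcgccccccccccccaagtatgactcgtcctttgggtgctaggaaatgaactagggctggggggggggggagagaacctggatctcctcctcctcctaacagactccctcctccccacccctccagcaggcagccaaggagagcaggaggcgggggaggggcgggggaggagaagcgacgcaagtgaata
Lef1, start within the gene, chr3:131156044-131156293, plus strand: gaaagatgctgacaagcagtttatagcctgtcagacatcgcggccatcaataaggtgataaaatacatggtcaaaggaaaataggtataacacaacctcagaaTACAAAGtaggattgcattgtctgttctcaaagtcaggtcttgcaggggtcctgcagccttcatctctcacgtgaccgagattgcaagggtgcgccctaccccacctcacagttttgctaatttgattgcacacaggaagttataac
Axin2, chr11:108920099-108920348, plus strand: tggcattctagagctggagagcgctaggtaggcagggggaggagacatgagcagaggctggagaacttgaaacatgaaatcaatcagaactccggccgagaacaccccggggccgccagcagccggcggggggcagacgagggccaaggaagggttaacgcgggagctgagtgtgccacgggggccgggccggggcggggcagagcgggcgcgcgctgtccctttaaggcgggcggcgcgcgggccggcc
Dkk2, chr3:132085042-132085291, plus strand: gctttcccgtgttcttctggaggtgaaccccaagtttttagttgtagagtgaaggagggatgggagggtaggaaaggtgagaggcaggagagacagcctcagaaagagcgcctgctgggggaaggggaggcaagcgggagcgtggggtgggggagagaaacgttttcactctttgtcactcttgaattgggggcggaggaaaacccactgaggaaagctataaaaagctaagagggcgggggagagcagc
Ndp, chrX:16911775-16912024, minus strand: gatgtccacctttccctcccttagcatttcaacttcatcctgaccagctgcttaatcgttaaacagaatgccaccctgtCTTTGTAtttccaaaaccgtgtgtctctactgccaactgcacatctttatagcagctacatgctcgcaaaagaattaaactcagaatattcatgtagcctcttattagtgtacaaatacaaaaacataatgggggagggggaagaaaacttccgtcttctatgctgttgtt
A match was present in 2 of the 11 windows found for these genes, some of which overlap. No window was matched to Apcdd1 or Lrp5. In Ndp it read CTTTGTA and began 171 bases before the start. In Lef1 it read TACAAAG, the same motif on the opposite strand, and began 147 bases before the internal start. Of all 32851 RefSeq windows of that length, 14.8% held a match. A match is only a description of the letters, and no match says only that these letters are not in the window.

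Values below are log2 ratios of sample over reference, so they can be compared between groups for a gene but not between genes. A difference of 1 is a factor of 2. A gene was called when its limma p-value, adjusted over all probes tested (Benjamini-Hochberg), was under 0.05. Ratios of dim probes are pulled towards 0 by the offset of 50 intensity units added before the log, so their differences are understated.

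The cell labels were compared with marker genes first. The mean log2 ratio of 16 endothelial genes was 2.58 to 2.90 on the tip arrays, 3.05 to 3.20 on the stalk arrays and 0.16 to 0.43 on the nonvascular arrays. The mean of 14 pericyte and smooth muscle genes was 0.88 to 1.21 in tip, 1.61 to 1.83 in stalk and −0.80 to −0.62 in nonvascular samples, so mural cell genes were high in both vascular groups. Müller glia genes (11) averaged 1.99 to 2.30 in tip and 2.19 to 2.28 in stalk, and astrocyte genes (8) 1.89 to 2.14 and 1.98 to 2.12. Nonvascular replicate 3 stood apart from the other nonvascular arrays: its Müller glia mean was 2.06 against 1.20 and 0.84, and its astrocyte mean 1.71 against 0.52 and 0.54. In these mixed samples fewer cells of a type and less RNA per cell cannot be told apart. The median red signal above background was 98.1 to 141 on the stalk arrays, 105 to 292 on the tip arrays and 166 to 282 on the nonvascular arrays, with tip replicates 5 and 6 as dim as the stalk arrays at 114 and 105. The stalk arrays were scanned first and the nonvascular arrays last, so the order of scanning cannot be told apart from the groups. Only tip replicate 5 was scanned on another day.

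**Figure D1:**
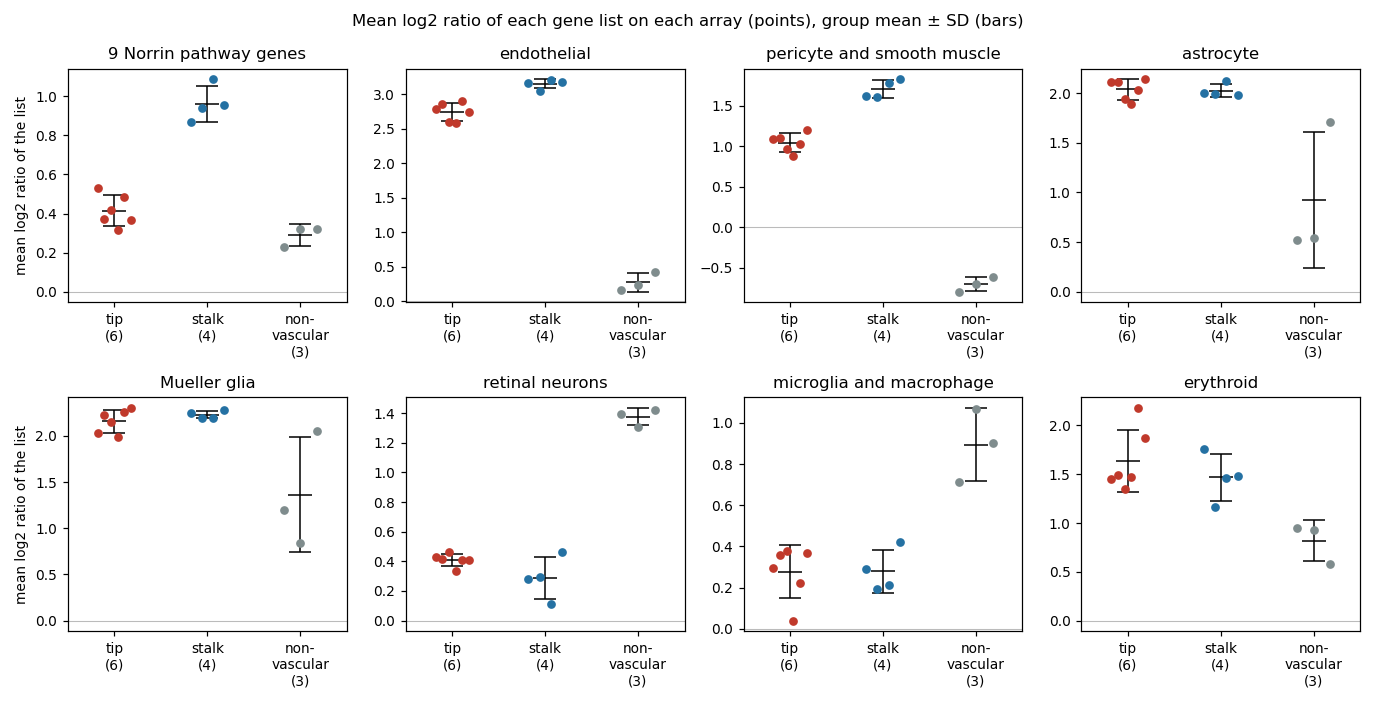
Mean log2 ratio over reference of the 9 Norrin pathway genes and of 7 lists of cell type markers, 1 panel per list. Points are arrays (6 tip, 4 stalk, 3 nonvascular), bars are group means ± SD, and the vertical scale differs between panels. The endothelial mean was 2.58 to 2.90 on the tip arrays and 3.05 to 3.20 on the stalk arrays, and 1 nonvascular array lay above the other nonvascular arrays for the astrocyte and Müller glia lists.

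Tip samples had less Lef1, Axin2 and Dkk2 RNA than stalk samples, and none of the 9 genes was called higher in tip. Over all genes with a symbol, 1.93% were called lower and 1.75% higher in tip, 3.67% in either direction. The median difference of the 9 genes was −0.50, against 0.01 over all genes. At an unadjusted p under 0.05, limma gave 7 of the 9 genes lower and 0 higher by their brightest probes. Of all genes, 9.26% were lower and 12.3% higher at that threshold. The second Ctnnb1 probe was higher in tip at that threshold. Across all probes 527 were called higher and 452 lower in tip. These became 242 and 543 with the red channel alone, and 62 and 218 with each array centred on its median.

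Lef1, the nuclear partner of β-catenin and itself a Wnt target, was 1.23, 0.69, 1.26 and 0.25 in the 4 stalk samples. In the 6 tip samples it ranged from −0.53 to 0.13 with a median of −0.06. Every tip sample lay below every stalk sample, although stalk replicate 4 came close to the highest tip sample. Over all genes, the arrays of tip and stalk did not overlap for 6.75%. The difference, tip minus stalk, was −1.01 ± 0.19 (SE, n = 6 and 4, limma adjusted p = 0.0168), or 2.01-fold higher in stalk. Lef1 was no longer called with stalk replicate 1 left out (adjusted p = 0.0609), with stalk replicate 3 left out (0.0571), or with array brightness in the model (0.129), while over these and the other settings tried the difference stayed between −1.47 and −0.87.

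In nonvascular retina Lef1 was lower again, at −1.15, −1.35 and −1.24. The groups thus stood in the order stalk, tip, nonvascular, with no array of one group inside the range of another. Of all genes, 44.5% had no overlap between stalk and nonvascular arrays, and 34.6% none between tip and nonvascular arrays. Stalk exceeded nonvascular retina by 2.11 ± 0.23 (SE, n = 4 and 3, adjusted p = 1.2e-05), and tip exceeded it by 1.10 ± 0.21 (SE, n = 6 and 3, adjusted p = 0.0014). These 2 comparisons share the nonvascular arrays. In the deposited value table, to which no offset was added here, the Lef1 differences from nonvascular retina were 3.49 for stalk and 2.06 for tip.

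Axin2, a scaffold of the β-catenin destruction complex and a feedback target of the pathway, had the opposite place for nonvascular retina. Its values were 1.41, 1.44 and 1.30 in nonvascular samples, the highest of the 13 arrays. The stalk samples stood at 0.24, 0.66, 0.91 and 0.54, and the tip samples ranged from −0.55 to 0.34 with a median of −0.24. Stalk and tip overlapped, since 1 tip sample at 0.34 exceeded 1 stalk sample at 0.24. Tip was lower than stalk by −0.74 ± 0.17 (SE, n = 6 and 4, adjusted p = 0.0396), or 1.68-fold.

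Against nonvascular retina Axin2 was lower in both vascular groups. The difference was −1.54 ± 0.19 for tip (SE, n = 6 and 3, adjusted p = 3.5e-05) and −0.79 ± 0.20 for stalk (SE, n = 4 and 3, adjusted p = 0.00896). Neither group overlapped the controls, as was so for 34.6% of all genes for tip and 44.5% for stalk. The stalk call was lost in the deposited value table (adjusted p = 0.0952) and with the red channel alone (0.107). The tip minus stalk call for Axin2 was not firm. It was lost without nonvascular replicate 1 or 2, without stalk replicate 2, 3 or 4, and without tip replicate 1, 2, 4 or 5, with adjusted p-values of 0.0544 to 0.124, and was also lost in the deposited value table (0.056), with median centring (0.0591), with only the tip and stalk arrays in the fit (0.066) and with brightness in the model (0.284). The Axin2 difference was −1.14 in the deposited value table and −1.15 with the red channel alone.

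Dkk2, a secreted modulator of Wnt signalling of the Dickkopf family, was highest in stalk. The stalk values were 0.86, 1.19, 0.10 and 0.61, while the 6 tip samples ranged from −0.36 to −0.06 with a median of −0.31. The nonvascular values of −0.15, −0.02 and −0.17 lay in the upper part of the tip range or just above it, and every stalk sample exceeded all tip and nonvascular samples. Stalk arrays did not overlap tip arrays for 6.75% of all genes, nor nonvascular arrays for 44.5%. The difference between tip and stalk was −0.95 ± 0.16 (SE, n = 6 and 4, adjusted p = 0.00851), or 1.93-fold. Stalk exceeded nonvascular retina by 0.80 ± 0.19 (SE, n = 4 and 3, adjusted p = 0.00532). Tip and nonvascular retina were not separated in the settings tried (adjusted p = 0.216 to 0.846), with a difference of −0.14 and a 95% interval of −0.52 to 0.23. In the deposited value table that difference was −0.90.

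The Dkk2 probe was dim. The scanner software placed it well above background on all stalk and nonvascular arrays but on only 2 of 6 in tip, with red signals over background of 10.1 to 29.3 in tip, 29.1 to 205 in stalk and 27.8 to 35.2 in nonvascular samples. The size of the difference therefore moved with the processing: tip minus stalk was −3.48 in the deposited value table, −1.54 with the red channel alone and −1.54 with median centring, and stalk minus nonvascular was 2.58, 1.32 and 1.45. With array brightness in the model the Dkk2 difference was −0.99 and its call was lost (adjusted p = 0.0566).

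Apcdd1, a membrane protein that inhibits Wnt signalling and is a target gene of it, showed no separation of the groups. The only probe taken for it carries the name of a predicted transcript that RefSeq lists as a synonym of Apcdd1, and whether it detects Apcdd1 RNA could not be checked here. All values lay between −0.15 and 0.10. Tip minus stalk was −0.04 (95% interval −0.17 to 0.08, adjusted p = 0.747), and stalk minus nonvascular was 0.11 (95% interval −0.04 to 0.26, adjusted p = 0.288). The Apcdd1 probe gave red signals of 42.3 to 152 over background, so these intervals hold for compressed ratios.

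**Figure D2:**
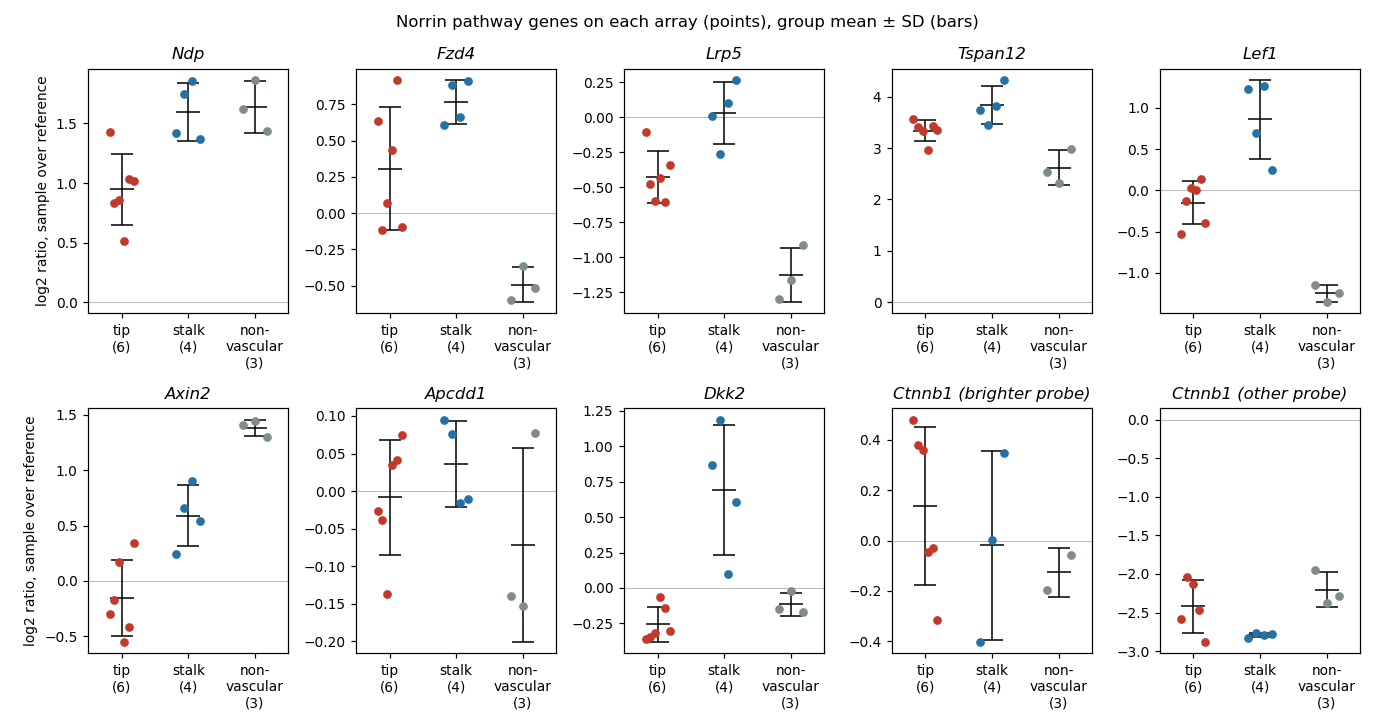
Log2 ratio of sample over reference for the 10 probes, 1 panel per probe, on each array (points), with group mean ± SD (bars) for 6 tip, 4 stalk and 3 nonvascular arrays. Ctnnb1 has 2 probes, with up to 1 flagged spot missing per group, and the vertical scale differs between panels. Lef1 and Dkk2 show no overlap between tip and stalk, as was so for 6.75% of all genes, and Axin2 is highest in nonvascular retina.

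The receptor side of the pathway was higher in both vascular groups than in nonvascular retina. Fzd4, Lrp5 and Tspan12 were each called higher in tip and in stalk. None of them was called between tip and stalk. In all, 4 of the 9 genes were called higher and 2 lower in tip than in nonvascular retina, where 15.1% and 20.1% of all genes were called so (35.3% in either direction). In stalk 5 were called higher and 1 lower, against 14.9% and 22.3% of all genes (37.2% in either direction). Marker lists also differed from nonvascular retina. The endothelial median was 2.83 in tip and 3.35 in stalk, and that of pericyte and smooth muscle genes 1.66 and 2.34. Astrocyte medians were 1.18 and 0.76, Müller glia medians 0.91 and 0.74, and red cell medians 0.90 and 0.67. Neuronal medians were −0.35 and −0.33, and microglia medians −0.68 and −0.63. The part of cell makeup in the receptor differences was not tested.

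Fzd4, the Norrin receptor, was 0.61, 0.88, 0.67 and 0.91 in stalk and −0.60, −0.36 and −0.51 in nonvascular samples. The tip samples spread widely, from −0.11 to 0.92 with a median of 0.25. Some tip samples were thus at the stalk level and others close to 0, but all were above the nonvascular samples. Fzd4 exceeded nonvascular retina by 1.26 ± 0.22 in stalk (SE, n = 4 and 3, adjusted p = 0.00065) and by 0.80 ± 0.20 in tip (SE, n = 6 and 3, adjusted p = 0.00944). Arrays did not overlap in either comparison, as was so for 44.5% of all genes for stalk and 34.6% for tip. Tip minus stalk was −0.46 with a 95% interval of −0.86 to −0.06 before adjustment, and was not called (adjusted p = 0.221). In the deposited value table the Fzd4 differences from nonvascular retina were 2.10 for stalk and 1.36 for tip.

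Lrp5, the coreceptor, was 0.01, −0.26, 0.10 and 0.27 in stalk and −1.30, −1.17 and −0.92 in nonvascular samples. The tip samples lay between, from −0.61 to −0.10 with a median of −0.46. Stalk and tip overlapped, and both stood clear of the nonvascular samples, as stalk did for 44.5% of all genes and tip for 34.6%. Lrp5 exceeded nonvascular retina by 1.16 ± 0.14 in stalk (SE, n = 4 and 3, adjusted p = 3.67e-05) and by 0.70 ± 0.13 in tip (SE, n = 6 and 3, adjusted p = 0.00124). The tip minus stalk difference of −0.46 ± 0.12 was not called (adjusted p = 0.0678), though it was without stalk replicate 2 (adjusted p = 0.0363) or tip replicate 1 (0.0356). With median centring the Lrp5 call of tip against nonvascular retina was lost (adjusted p = 0.0744).

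Tspan12, which enhances Norrin signalling at the receptor complex, was 3.74, 3.46, 3.82 and 4.33 in stalk. It ranged from 2.96 to 3.56 in tip, with a median of 3.39, and was 2.54, 2.33 and 2.99 in nonvascular samples. The order was again stalk, tip, nonvascular, with overlap between neighbours. Tspan12 exceeded nonvascular retina by 1.22 ± 0.20 in stalk (SE, n = 4 and 3, adjusted p = 0.000451) and by 0.72 ± 0.19 in tip (SE, n = 6 and 3, adjusted p = 0.0109). Tip minus stalk was −0.50 ± 0.17 and was not called (adjusted p = 0.153). The call of tip against nonvascular retina was lost for Tspan12 without nonvascular replicate 2 (adjusted p = 0.0739) and with median centring (0.112), while with the red channel alone that difference was 1.16.

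Ndp, the ligand, did not share the pattern of its receptor. Its levels in stalk and nonvascular retina were not separated, and it was lowest in tip. The nonvascular values were 1.62, 1.87 and 1.43, the stalk values 1.42, 1.75, 1.86 and 1.37, and the tip samples ranged from 0.51 to 1.43 with a median of 0.94. Stalk and nonvascular samples covered the same range. The tip samples lay below it except tip replicate 1, which at 1.43 fell inside the stalk range and just under the lowest nonvascular sample.

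The Ndp difference between tip and nonvascular retina was −0.69 ± 0.17 (SE, n = 6 and 3, adjusted p = 0.00894), or 1.62-fold. Between tip and stalk it was −0.65 ± 0.16 (SE, n = 6 and 4) and missed the threshold (adjusted p = 0.0522). It passed without tip replicate 1 (adjusted p = 0.0199), without tip replicate 6 (0.0498), with the red channel alone (0.0219), with 1 probe kept per gene (0.0493) and with probes averaged per gene (0.0499), and over all settings that p-value ranged from 0.0199 to 0.265 and the difference from −1.10 to −0.56. Stalk minus nonvascular was −0.04 with a 95% interval of −0.45 to 0.36. The Ndp call of tip against nonvascular retina was lost without nonvascular replicate 2 (adjusted p = 0.0595) and in the deposited value table (0.0685).

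Ctnnb1, which encodes β-catenin, was not called between tip and stalk by either probe. On the brighter probe tip ranged from −0.32 to 0.48 with a median of 0.17. The stalk values were −0.40, 0.00 and 0.35, and the nonvascular values −0.20 and −0.06, with 1 flagged spot missing in each of these groups. The groups overlapped on the brighter Ctnnb1 probe, and its tip minus stalk difference was 0.16 (95% interval −0.28 to 0.59, adjusted p = 0.739), a sign that turned without stalk replicate 1 (−0.04) and with brightness in the model (−0.05). The other probe was lower in stalk than in nonvascular retina, by −0.58 ± 0.17 (SE, n = 4 and 3, adjusted p = 0.0252). The brighter one gave 0.11 there (n = 3 and 2, adjusted p = 0.808). Their 95% intervals, −0.97 to −0.20 and −0.45 to 0.67, overlapped, and a difference between the 2 Ctnnb1 probes was not tested. The call of the other probe was lost without nonvascular replicate 1 (adjusted p = 0.119), without stalk replicate 1 (0.0534) and with brightness in the model (0.329).

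**Figure D3:**
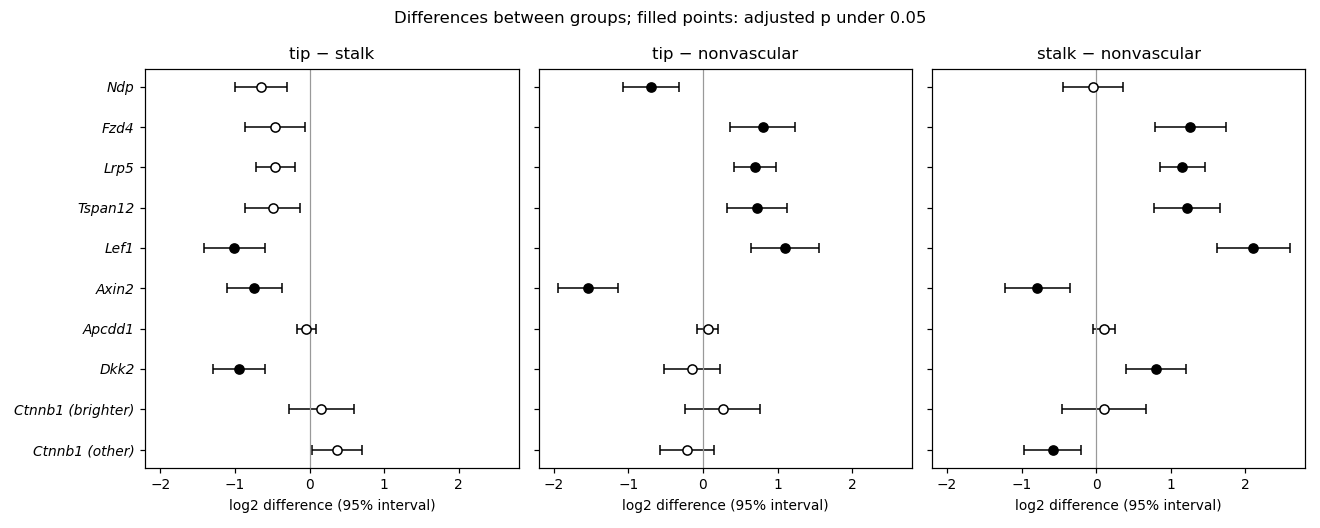
Log2 differences between groups for the 10 probes, with unadjusted 95% intervals from the limma fit over 13 arrays, for tip minus stalk (left), tip minus nonvascular (middle) and stalk minus nonvascular (right). Filled points are called at an adjusted p under 0.05. Lef1 has the largest difference of the 10 probes between stalk and nonvascular retina (2.11), and Axin2 is lower than in nonvascular retina in both vascular groups.

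Other markers moved with these differences between tip and stalk. Of 16 endothelial genes 5 were called lower and 1 higher in tip, with a list median of −0.32, and of 14 pericyte and smooth muscle genes 9 were called lower and 0 higher, with a median of −0.75. Among the pericyte genes limma gave 10 lower and 0 higher at an unadjusted p under 0.05. Set against the mean of 14 endothelial genes on the same array (the list without Cldn5 and Sox17), the difference between tip and stalk was −0.73 for Lef1, −0.67 for Dkk2, −0.46 for Axin2, −0.37 for Ndp, −0.22 for Tspan12 and −0.18 for Fzd4 and Lrp5. On that scale Apcdd1 stood 0.24 higher in tip, and the Ctnnb1 probes 0.42 and 0.63. Before scaling the Apcdd1 difference was −0.04 and was not called, so its direction here came from the lower endothelial mean in tip. That endothelial mean was 2.67 ± 0.14 (SD, n = 6) in tip and 2.95 ± 0.07 (SD, n = 4) in stalk. The scaling subtracted the same value from every gene on an array and took no account of mural cell genes or of RNA from other cells. Axin2 was highest in nonvascular retina, and Ndp was not separated between stalk and nonvascular retina. Their scaled values are therefore not a correction for endothelial content. The scaling was not a test of cell makeup, and the part of cell makeup in the differences was not tested. Of 11 genes of Müller glia, 1 was called lower in tip than in stalk, and the list median was −0.02. Their differences ran from −0.99 to 0.44. Limma called 0 of 8 astrocyte genes, 0 of 24 genes of retinal neurons, 0 of 12 of microglia and 0 of 4 of red cells between tip and stalk. The absence of calls does not mean equal levels. Differences ran from −0.94 to 0.67 for astrocyte genes and from −0.77 to 1.10 for neuronal genes. For microglia genes they ran from −0.23 to 0.40, and for red cell genes from −0.08 to 0.58. Unadjusted p-values under 0.05 were found for 1 astrocyte gene (lower), 3 neuronal genes (higher), 1 microglia gene (lower) and 0 red cell genes.

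Without nonvascular replicate 3, the array with more glial RNA, each call of a member gene against nonvascular retina was kept. In that fit tip minus nonvascular was −0.80 for Ndp, 0.79 for Fzd4, 0.80 for Lrp5, 0.91 for Tspan12, 1.10 for Lef1 and −1.58 for Axin2.

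The other genes of the pathway were read from 8 lists, of which 105 genes were tested. Between tip and stalk 4 of the 105 were called higher and 9 lower, where 1.75% and 1.93% of all genes were called so. Genes tied to the vessel barrier made up most of the lower ones. Of 13 genes on their list 5 were called lower, among them Mfsd2a, Sox17, Foxf2 and Cldn5. The list also holds Plvap, known from leaky endothelium, so its median pools genes of opposite kinds. That median was −0.55, and 0 of its genes were higher, also at an unadjusted p under 0.05. Of the marker lists, 5 of 16 endothelial genes and 9 of 14 pericyte and smooth muscle genes were also called lower in tip. Their medians were −0.32 and −0.75.

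Mfsd2a, the lipid transporter of barrier endothelium, had the largest difference. It was 3.34, 3.81, 3.85 and 3.35 in stalk, and ranged from 0.36 to 0.90 in tip. Nonvascular samples stood lower still, at −0.40, −0.72 and −0.10. The tip minus stalk difference of Mfsd2a was −2.97 ± 0.15 (SE, n = 6 and 4, adjusted p = 3.15e-06). No array of one group entered the range of another. Between tip and stalk that was so for 6.75% of all genes.

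The transcription factor Sox17 followed, with 4.33, 4.17, 4.03 and 4.39 in stalk and 2.53 to 3.19 in tip. Its difference was −1.44 ± 0.12 (SE, n = 6 and 4, adjusted p = 5.42e-05) on the brightest Sox17 probe. Its other probes gave −0.28 (adjusted p = 0.0731) and −0.04 (0.753). Mean over its probes, the Sox17 difference was −0.58 and still called.

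Foxf2, a forkhead factor, was lower in tip by −1.34 ± 0.13 (SE, adjusted p = 0.000267), and the tight junction gene Cldn5 by −1.16 ± 0.14 (SE, adjusted p = 0.000898). For Foxf2 the stalk values were 2.51, 2.38, 2.83 and 2.79 and the tip range 1.01 to 1.52. Cldn5 was 4.78, 4.68, 5.07 and 4.95 in stalk and 3.32 to 3.96 in tip. Neither gene overlapped between tip and stalk, as was so for 6.75% of all genes. Calls on Mfsd2a, Sox17, Foxf2 and Cldn5 were kept in all settings tried. Cldn5 and Sox17 are also on the endothelial list.

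The remaining barrier genes were not called between tip and stalk. Sox7 differed by −0.24 (adjusted p = 0.191), Sox18 by −0.23 (0.34), the glucose transporter Slc2a1 by −0.55 (0.436) and the amino acid transporter Slc38a5 by −1.33 (0.135). Slc2a1 was 0.99, 1.05, 0.92 and 1.12 in stalk and 0.36 to 0.52 in tip, without overlap, as was so for 6.75% of all genes. The fit pooled the spread of all 3 groups, and the nonvascular values of Slc2a1 were −2.63, −3.43 and −0.91. Plvap differed by −0.31 (0.367). Against nonvascular retina 10 of the 13 barrier genes were called higher in tip and 10 in stalk, with list medians of 1.84 and 3.17. Of all genes, 15.1% were called higher in tip and 14.9% in stalk.

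Among widely used Wnt targets, Tnfrsf19, a receptor of the TNF family, separated the vascular groups most. It was 1.19, 1.67, 1.34 and 1.48 in stalk against −0.64 to 0.00 in tip and −0.17, −0.14 and −0.65 in nonvascular samples. The tip minus stalk difference of Tnfrsf19 was −1.83 ± 0.14 (SE, n = 6 and 4, adjusted p = 3.76e-05), kept in all settings. Stalk alone was thus high. The list did not move 1 way: Ccn4, a secreted matricellular protein, was higher in tip, by 0.55 ± 0.08 (SE, adjusted p = 0.00525), and of 14 targets 1 was called higher and 1 lower. The call on Ccn4 was lost with the red channel alone (0.299) and with median centring (0.129).

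The receptors and inhibitors were split too. Adgra2, a coreceptor for Wnt7 proteins, was lower in tip by −0.80 ± 0.18 (SE, adjusted p = 0.0415), while its partner Reck was higher by 0.37 ± 0.07 (SE, adjusted p = 0.0226). Shisa2, which holds Frizzled receptors inside the cell, was lower by −0.70 ± 0.16 (SE, adjusted p = 0.036), and Igfbp4, a secreted inhibitor, higher by 0.73 ± 0.16 (SE, adjusted p = 0.0368). In the destruction complex Apc2 was lower by −0.30 ± 0.05 (SE, adjusted p = 0.0112), and Dvl2, a Dishevelled protein that relays the receptor signal, was higher by 0.37 ± 0.09 (SE, adjusted p = 0.0486). The second Igfbp4 probe gave 0.13 (adjusted p = 0.427).

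Several of these calls rested on few arrays or on the scaling. Each of stalk replicates 1, 2 and 3 and tip replicates 1, 3 and 4, when left out, ended the calls on Adgra2, Shisa2, Igfbp4 and Dvl2. Leaving out tip replicate 2 ended those on Adgra2, Shisa2 and Igfbp4, and nonvascular replicate 2 those on Adgra2, Igfbp4 and Dvl2. Stalk replicate 4 did so for Adgra2 and Shisa2, tip replicate 5 for Igfbp4 and Dvl2, and tip replicate 6 for Dvl2. Over all settings the adjusted p of Adgra2 ranged from 0.00537 to 0.347, of Shisa2 from 0.0116 to 0.5, of Igfbp4 from 0.00574 to 0.319 and of Dvl2 from 0.0287 to 0.671.

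For Reck and Apc2 the adjusted p rose to 0.187 and 0.316 when only the red channel was used, to 0.138 and 0.152 under median centring and to 0.222 and 0.106 with brightness in the model. The call on Reck was also lost without stalk replicate 2 (0.0634) or 3 (0.0713). The sign of every pathway difference called between tip and stalk was the same in all settings. Its size ranged from 0.29 to 0.71 for Reck, from −0.49 to −0.26 for Apc2 and from −1.32 to −0.39 for Shisa2.

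No Wnt ligand or secretion factor was called between tip and stalk by limma, 0 of 21, with 1 lower and 0 higher at an unadjusted p under 0.05. The same count was 0 of 6 for R-spondins and receptor turnover genes, with 0 at the unadjusted threshold. It was 0 of 10 for the nuclear factors, with 2 lower and 0 higher unadjusted. Tcf7, a close relative of Lef1, differed by −0.11 between tip and stalk (adjusted p = 0.728) but was higher than in nonvascular retina by 1.70 in tip and 1.81 in stalk (adjusted p = 2.35e-06 and 2.53e-06).

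**Figure D4:**
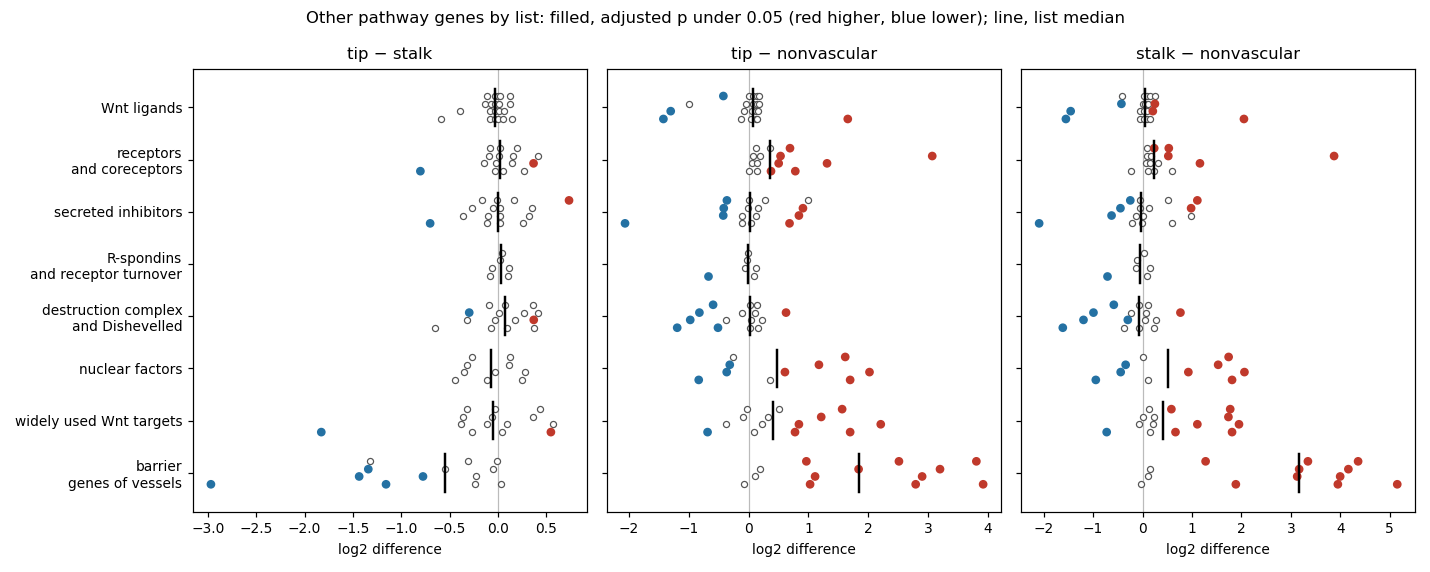
Log2 differences of the tested genes of the 8 pathway lists in the 3 comparisons; genes on 2 lists appear on both. Filled points are called at an adjusted p under 0.05 (red higher, blue lower), open points are not called, and black lines are list medians. The barrier genes have a median of −0.55 between tip and stalk and of 1.84 and 3.17 against nonvascular retina, while the other lists have medians near 0 between tip and stalk.

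**Figure D5:**
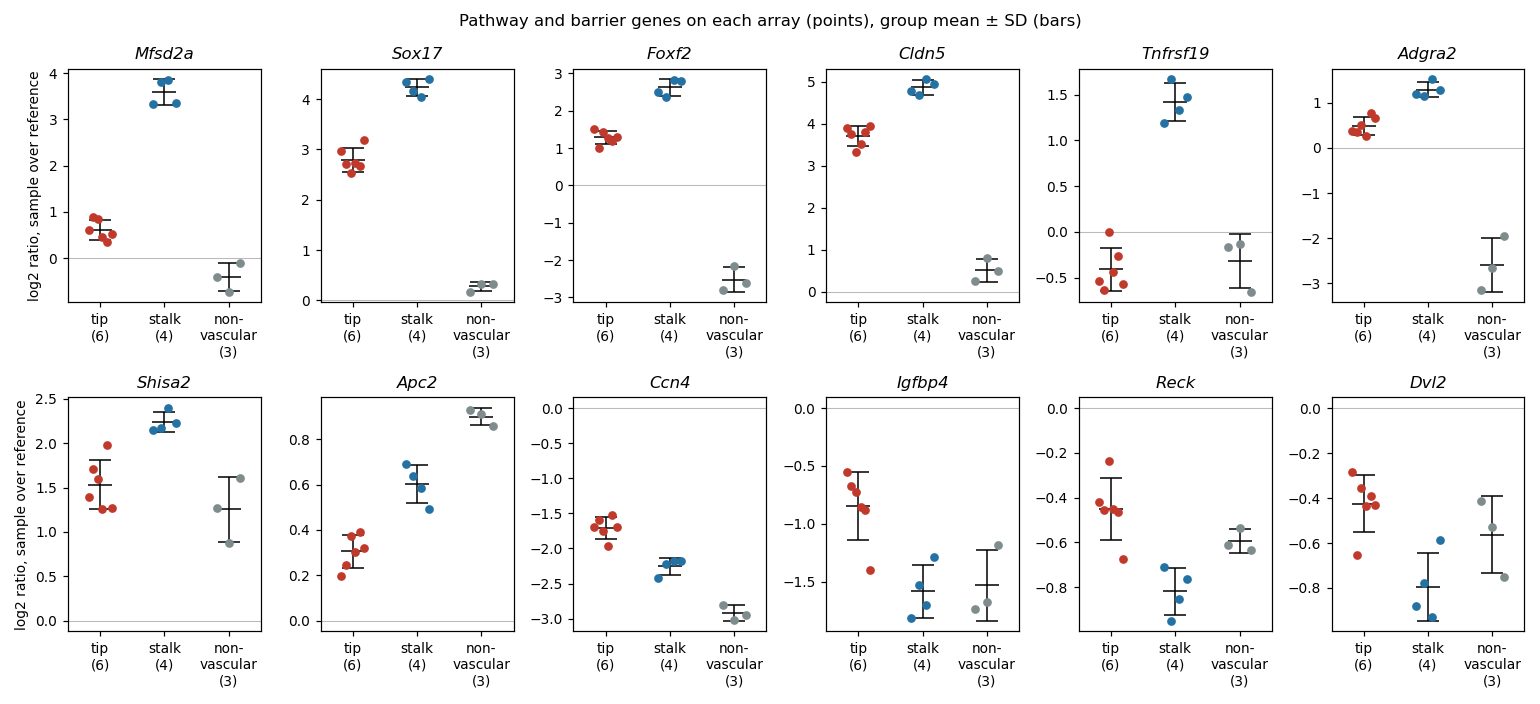
Log2 ratio over reference for 12 of the pathway genes called between tip and stalk, on each array (points), with group mean ± SD (bars) for 6 tip, 4 stalk and 3 nonvascular arrays; the vertical scale differs between panels. Mfsd2a, Sox17, Foxf2 and Cldn5 show stalk above tip above nonvascular, while Tnfrsf19 is high in stalk alone.

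Against nonvascular retina, 31 of the 105 pathway genes were called higher and 16 lower in tip, and the counts were again 31 and 16 in stalk. These were 29.5% and 15.2% of the pathway genes. Of all genes, 15.1% were called higher and 20.1% lower in tip, and 14.9% and 22.3% in stalk. The 2 comparisons share their controls. The largest differences above nonvascular retina in stalk were Foxf2 (5.15), Cldn5 (4.36), Sox7 (4.16), Mfsd2a (4.00), Sox17 (3.95) and Adgra2 (3.87), the first 5 of the barrier list. In tip they were Sox7 (3.92), Foxf2 (3.81), Cldn5 (3.20), Adgra2 (3.07), Sox18 (2.90) and Slc2a1 (2.79).

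The genes furthest below nonvascular retina were different in kind. Dkkl1, a Dickkopf-like secreted protein, was lower by −2.07 in tip and −2.09 in stalk. Porcn, which acylates Wnt proteins for secretion, was lower by −1.43 and −1.55, and the ligand Wnt3 by −1.30 and −1.45, with its second probe at −1.35 and −1.52. Tnks, which marks Axin for degradation, was lower by −1.20 and −1.61, and the kinase Csnk1e by −0.98 and −0.99. The corepressor Tle4 was lower in tip by −0.84 and the kinase Gsk3b in stalk by −1.19. All of these had adjusted p-values of 7.88e-05 or less. The second probes of Tnks, Csnk1e and Gsk3b lay nearer 0. They gave −0.08, −0.09 and −0.12 in stalk and were not called there. In tip the second Csnk1e probe gave 0.01 (adjusted p = 0.909) and that of Tnks −0.13 (0.0409). With probes averaged per gene the differences were −0.66 in tip and −0.85 in stalk for Tnks, −0.48 and −0.54 for Csnk1e, and −0.66 in stalk for Gsk3b. In the deposited value table they were −2.76 in tip and −3.09 in stalk for Wnt3 and −2.04 in stalk for Gsk3b, and Wnt3 in tip was −1.99 with median centring. In the same samples 13 of 24 genes of retinal neurons were called lower in tip and 12 in stalk, and the part of neuronal RNA in these differences was not tested.

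For each gene except Ctnnb1, which had missing arrays, the 3 genes with the most similar profile were found among 16238 genes by the root mean square (RMS) difference of centred log2 ratios over the 13 arrays. Nearest to Lef1 were Lrrk1, Sned1 and Def6 (RMS 0.25, 0.27 and 0.27, against 0.82 for the spread of Lef1 itself). Like Lef1, each of these was highest in stalk and lowest in nonvascular retina, with Def6 at group means of 0.56 in stalk, −0.61 in tip and −1.30 in nonvascular samples. Nearest to Dkk2 were Gpr182, 1110059G10Rik and Slc46a3 (0.24, 0.25 and 0.26, against 0.48). Gpr182 averaged 0.96 in stalk, 0.06 in tip and 0.52 in nonvascular samples.

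Axin2 was nearest to Tshz3, Kcnab1 and Hs3st1 (RMS 0.30, 0.30 and 0.31, against 0.69), all highest in nonvascular retina and lowest in tip. Hs3st1 averaged 2.66 in nonvascular samples, 1.51 in stalk and 0.83 in tip. Ndp was nearest to Zdhhc9, Zfp521 and Rps19bp1 (0.20, 0.20 and 0.23, against 0.42). Zfp521 averaged 2.95 in nonvascular samples, 2.90 in stalk and 2.37 in tip, the same order as Ndp.

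The receptor genes had close neighbours of their own. Tspan12 was nearest to Lratd2, Lrp5 and Nup155 (RMS 0.18, 0.19 and 0.19, against 0.51), so that 1 of its 3 neighbours was its partner in the receptor complex. Lrp5 was nearest to Aldh6a1, G3bp1 and Btd (0.16, 0.16 and 0.16, against 0.46), and Fzd4 to Mknk2, Ccm2l and Cib1 (0.20, 0.23 and 0.24, against 0.54). Apcdd1 was nearest to Nr0b2, Ctrb1 and Ly6k (0.05, 0.05 and 0.05, against 0.08), which like it hardly varied between arrays. Likeness of profile over 13 arrays in 3 groups says nothing of shared function.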

How the data were processed

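RNA of 13 samples was hybridised to Agilent 2-colour arrays against a common reference. Extraction used a PicoPure kit, RNA quality was read on a Bioanalyzer, and labelling used linear amplification for low input, per the labels' protocols. The scanner software was Agilent Feature Extraction 8.5.1.1, per the file headers and the submitters' processing notes. The deposited scanner files hold a mean intensity and a local median background intensity for each spot and channel, neither normalized. The series' deposited value table gives the ratio of red to green on a linear scale. For 100% of the probes compared on each array it equalled the antilog of the scanner software's log10 ratio within 0.001, per the file headers and values. No genome build is given in the sources used here.

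From these, normexp background correction (offset 50) and loess within each array were computed with limma 3.58.1 in R 4.3.3, with control spots at weight 0. Flagged outlier spots were set missing, so the fits of such probes drop those arrays. Spots of a probe were averaged. Of 41174 probes, 39354 were well above background in red on at least 3 of 13 arrays and were tested. These included probes of 16550 genes with a symbol. A gene is represented by its brightest probe. The fit was limma's moderated group-mean model over 13 arrays in 3 groups, tested on simulated data, with Benjamini-Hochberg adjustment over all probes. The number of arrays limits the precision. For 22072 probes the symbol came from their own RefSeq accession, for 135 from another accession and for 1097 from the description. The other 17870 kept the file's name. Promoter sequences are those of RefSeq (GRCm38.p6).

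The members and lists were chosen with earlier results of these data known. Genes named beside the 9 members are pathway genes called between tip and stalk (1 is not reported here), up to 6 per direction with the largest called difference in each other comparison, and the 3 nearest profiles of each member. Sox7, Sox18, Slc2a1, Slc38a5, Plvap and Tcf7 between tip and stalk, and Tcf7 against nonvascular retina, were added after their values were seen. Alternatives were the value table, the red channel alone, other background, normalization, filter and probe rules, 2-group fits, array brightness, a replicate block and leaving out each array.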

Additional observations from a re-analysis of the deposited data

Results flagged for a closer look

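Sox7, a transcription factor of endothelial cells on the barrier list, had 1 stalk sample apart from the others. Stalk replicate 4 was at a log2 ratio of 3.79, below 3.98, 4.00 and 4.02 in the other stalk samples. This was 1 of 65 groups of 4 to 6 arrays examined with Dixon's criterion, which flags about 1 group in 20 by chance. None of the 19 groups of the 9 Norrin pathway genes stood out.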

How the results depend on the processing

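Of 1602 alternative values for single genes, 1482 kept their direction and side of the threshold, 99 lost the call, 7 gained it and 14 changed sign. Between tip and stalk, probes called (979) fell to 280 with median centring and 247 with array brightness in the model, and were 479 to 1831 when 1 array was left out. Lowest were the fits without stalk replicate 1 (479) and 3 (496), without tip replicate 2 (585) and 3 (599), and highest that without tip replicate 6 (1831). Of the 9 Norrin pathway genes (3 called), 0 were called with brightness in the model and 1 to 4 with 1 array left out, 1 without stalk replicate 3. Of the other pathway genes (13 called), 8 were called with the red channel alone, 5 with median centring, 6 with brightness in the model, and 7 to 16 with 1 array left out, 8 without stalk replicate 1 and 7 without stalk replicate 3. Against nonvascular retina all 3 counts stayed within 1.5 times. Tip minus nonvascular probe calls split into 2602 higher and 6644 lower with median centring, against 4241 and 6364. The causes were not tested.

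The differences that changed sign were all uncalled. For Ndp, stalk minus nonvascular (−0.04) became 0.0548 in the value table, 0.294 with red only, 0.00299 when no background was subtracted and 0.062 with a replicate block. It was −0.146 to 0.0714 with 1 array left out, and above 0 without nonvascular replicate 2, stalk replicate 1 or stalk replicate 4. Apcdd1, tip minus stalk, became 0.203 with red only. The brighter Ctnnb1 probe became −0.00423 (tip minus nonvascular) and −0.0893 (stalk minus nonvascular) with median centring, −0.208 by the mean of its probes (stalk minus nonvascular) and −0.0514 with brightness in the model (tip minus stalk). With 1 array left out Ctnnb1 was −0.0363 to 0.338 for tip minus stalk, below 0 without stalk replicate 1, and −0.0731 to 0.301 for stalk minus nonvascular, below 0 without stalk replicate 4.

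The labels do not say whether replicate numbers pair the samples. Deviations of same-numbered arrays correlated at −0.143 to 0.0726, which shows no pairing but, with so few arrays, cannot exclude it. With the number as a block, tip minus stalk lost the calls on Lef1 (adjusted p = 0.0642), Ccn4 (0.0605), Apc2 (0.0628) and Dvl2 (0.132), and tip minus nonvascular those on Ndp (0.0585) and Tspan12 (0.0944). Signal over background limited Dkk2 in tip and Apcdd1 in all groups.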
